A study of Mus musculus with 28 samples.

Results

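The Dlk1-Dio3 imprinted microRNA cluster was described in whole lungs of newborn mice that lacked HRas, NRas or both, with and without N-acetyl cysteine (NAC, an antioxidant) given to the mothers in pregnancy. The members were fixed by name, as 38 microRNA genes of the locus on mouse chromosome 12, and each was read from the brightest probe set that the array annotation assigns to that gene symbol alone. Of the 38 listed genes, 27 had such a row, among 22180 genes in all. Another 10 (Mir127, Mir433, Mir136, Mir431, Mir434, Mir134, Mir485, Mir412, Mir369 and Mir410) lay on rows annotated with several symbols and were not analysed here, and Mir496 was not a symbol of the annotation. RefSeq gives Mir496 as an older name of Mir496a, which was handled among 16 other microRNA genes of the locus.

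The locus is imprinted: the paternal chromosome expresses protein-coding genes such as Dlk1, and the maternal chromosome expresses noncoding RNAs. The maternal transcripts Meg3, Rian and Mirg run in the same direction and carry small nucleolar RNAs (snoRNAs) and microRNAs in their introns, so many hairpins are cut from long shared transcripts. In mice the microRNAs are abundant in the placenta, the embryo and the brain, and deletion of the large distal block impairs the metabolic adaptation of newborns.

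Each of the 28 arrays held lung RNA of 1 animal taken on postnatal day 0. The untreated groups were Control (3 animals), HRas-KO (3), NRas-KO (3) and DKO (5), the double knockout of HRas and NRas, and NAC was given to 4 Control, 3 HRas-KO, 3 NRas-KO and 4 DKO animals, written with +NAC. Pregnant females received it at 0.5%. The labels do not describe the alleles, the strain or the genotype of the Control animals, and a shared note names fewer samples as NAC-treated than the sample labels do, which were followed here. Values are log2 array signals, so a difference of 1 is a 2-fold change in signal. They came from total RNA cleaned on columns and labelled for whole transcripts. Whether a hairpin's probe set read the long precursor, the hairpin or the mature microRNA was not tested. In whole lung, fewer cells of a type and less RNA per cell cannot be told apart.

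The mature sequences of the 6 members named by rule (Mir487b, the member that passed the test, and the 5 with the next smallest p-values) are shown from RefSeq (GRCm38.p6), with the seed, bases 2 to 8, in capitals. For Mir487b that table holds the 5p arm alone.
miR-487b-5p: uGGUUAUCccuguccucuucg
miR-668-5p: gUAAGUGUgccucgggugagcaug
miR-668-3p: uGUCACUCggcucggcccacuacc
miR-544-5p: uCUUGUUAaaaagcagagucu
miR-544-3p: aUUCUGCAuuuuuagcaagcuc
miR-381-5p: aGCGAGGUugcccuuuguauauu
miR-381-3p: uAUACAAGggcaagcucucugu
miR-495-5p: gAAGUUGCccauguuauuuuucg
miR-495-3p: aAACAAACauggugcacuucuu
miR-329-5p: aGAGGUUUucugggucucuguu
miR-329-3p: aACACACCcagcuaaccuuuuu
No seed was shared among these 11 sequences, so the members named below would read different sets of target sites. Among the 50 mature sequences of members with a row of their own, the shared seeds belonged to neighbouring hairpins, and these are shown because they are the members whose mature products overlap.
miR-379-3p: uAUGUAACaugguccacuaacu
miR-411-3p: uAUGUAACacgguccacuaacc
miR-376c-5p: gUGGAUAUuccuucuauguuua
miR-376b-5p: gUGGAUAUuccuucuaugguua

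The hairpins themselves were mostly unlike each other. Over the 325 pairs of the 26 members with a RefSeq hairpin, the median identity was 50.5%, and 1 pair, Mir376c and Mir376b, was over 75% identical. That pair is shown with its listed mature arms in capitals, because probes for it could share signal, which was not tested.
Mir376c: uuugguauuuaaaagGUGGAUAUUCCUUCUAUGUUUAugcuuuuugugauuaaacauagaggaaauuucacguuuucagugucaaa
Mir376b: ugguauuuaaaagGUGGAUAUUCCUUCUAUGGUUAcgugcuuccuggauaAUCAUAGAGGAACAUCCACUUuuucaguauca
Mir487b: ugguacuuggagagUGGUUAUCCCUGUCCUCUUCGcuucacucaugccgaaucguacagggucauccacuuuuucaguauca
The Mir376c hairpin lies at chr12:109722718-109722803, Mir376b at chr12:109723458-109723539 and Mir487b at chr12:109727333-109727414, all on the plus strand of GRCm38.p6. The block from Mir379 to Mir409 spans 34177 bases.

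The promoter of Meg3, the start of the maternal transcripts, is shown because the members moved together. In the window at chr12:109540746-109541045 (plus strand, GRCm38.p6) the capitals mark TGCCGC, the core recognised by the imprint protein Zfp57 when methylated, here on the other strand, and TGACGTCA, the cAMP response element.
Meg3 promoter: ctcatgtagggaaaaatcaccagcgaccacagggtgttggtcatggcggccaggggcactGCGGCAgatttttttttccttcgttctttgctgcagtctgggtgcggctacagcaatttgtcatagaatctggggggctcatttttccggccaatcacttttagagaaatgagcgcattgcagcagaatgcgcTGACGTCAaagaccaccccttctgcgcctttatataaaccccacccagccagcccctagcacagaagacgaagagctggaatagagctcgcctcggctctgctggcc
On either strand, TGCCGC is in 11.6% and TGACGTCA in 1.8% of 32851 RefSeq promoter windows of this length, and the motifs do not overlap each other. The windows of Rian, Mirg, Dlk1 and a second Meg3 start held neither string. A match of letters describes the window and shows no binding.

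The series held 28 arrays with medians between 5.25 and 5.41. Nras, which the NRas-KO and DKO animals should lack, lay at 7.40 to 8.08 in the 15 arrays of these genotypes and at 8.07 to 8.47 in the 13 others, so 1 DKO+NAC array at 8.08 reached the lower edge of the others. The deleted part of the gene is not given, so remaining signal checks the labels in part. Hras was not analysed here. The 6 distal lung epithelium markers were all measured, with a mean between -0.13 and 0.15 log2 of their average in every array. The titles of the samples begin with a code (C117, C118, H058 and others) whose meaning the labels do not give. No code start was shared between the untreated and the NAC arrays, so NAC and code start cannot be told apart. The DKO arrays shared none with the other untreated groups either.

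The members were high or low together from animal to animal. For each array the cluster level was taken as the median, over the 27 members, of the log2 value minus the member's mean over all arrays. It ran from -1.19 in DKO+NAC replicate 1 to 1.5 in DKO replicate 2, a 6.45-fold range of signal. In Control the cluster level was -0.52, 1.15 and 0.34 in replicates 1, 2 and 3. In HRas-KO it was -0.12, -0.24 and 0.67, and in NRas-KO -0.05, 0.91 and 0.42. The DKO arrays read -0.73, 1.5, -1.13, 1.23 and -0.03. The highest and the lowest untreated arrays were therefore both DKO, and the DKO values enclosed those of every other untreated group.

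With NAC the cluster level was 0.64, 0.52, -0.23 and -0.06 in Control+NAC and -0.64, -0.08 and -0.33 in HRas-KO+NAC. It was -0.35, -1.01 and -0.11 in NRas-KO+NAC and -1.19, 0.24, -0.18 and -0.34 in DKO+NAC. The NAC groups of the 3 knockouts were mostly below the members' overall means, with 1 of their 10 arrays above 0.

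**Figure D1:**
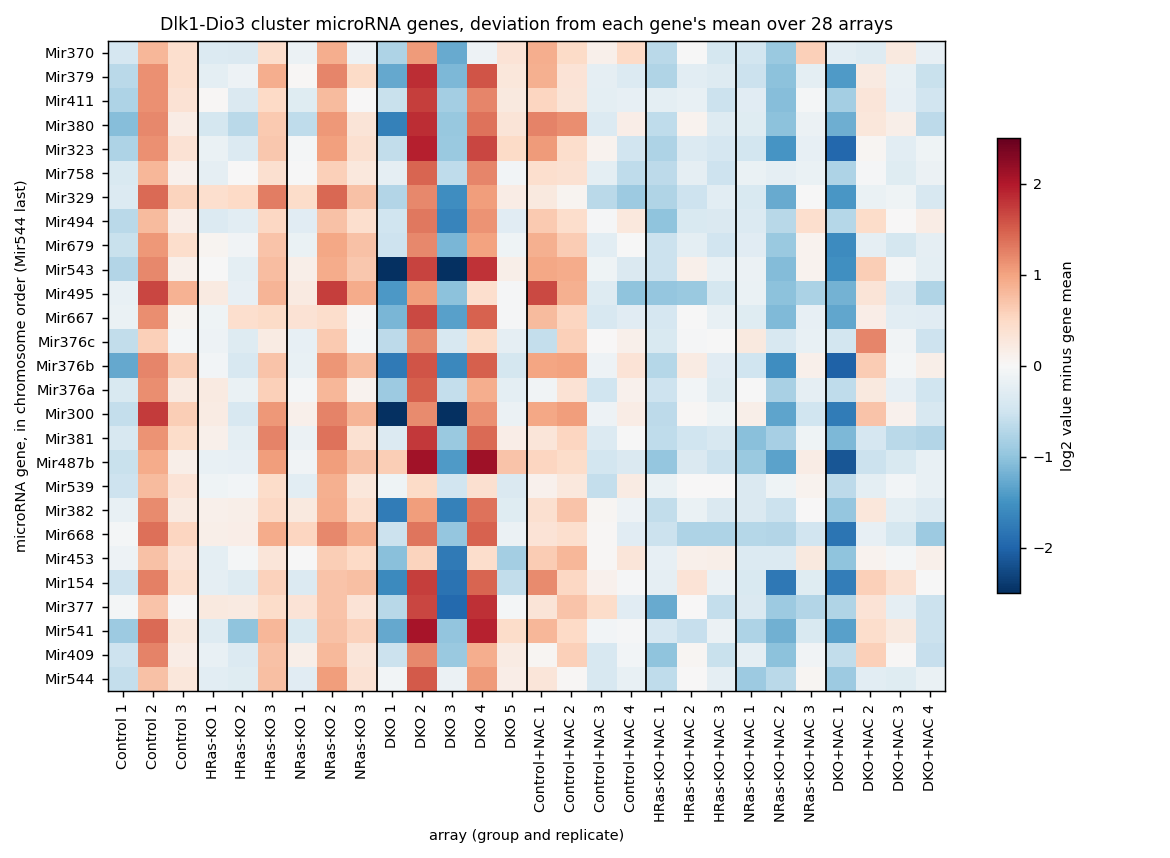
Rows are the 27 microRNA genes of the cluster in chromosome order (Mir544, with no RefSeq hairpin, last) and columns are the 28 arrays by group. Colour is the log2 value minus the gene's mean over all arrays, from blue (lower) to red (higher). Whole columns share a colour, as in DKO replicates 2 and 4 (red) and DKO replicates 1 and 3 (blue).

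Within an untreated group nearly every member ranked the same animals highest. In Control, replicate 2 was the highest array and replicate 1 the lowest for all 27 members. Over all genes, Control replicate 2 was the highest array for 31.0% and replicate 1 the lowest for 31.6%. HRas-KO replicate 3 was highest for 27 of 27 members, and NRas-KO replicate 2 for 26. In DKO, replicate 2 was highest for 22 members and replicate 4 for the other 5, while replicate 3 was lowest for 19 and replicate 1 for the other 8. DKO+NAC replicate 1 was lowest for 25 of 27. HRas-KO+NAC replicate 1 was lowest for 24, and NRas-KO+NAC replicate 2 was lowest for 23 and replicate 3 highest for 22. In Control+NAC, replicate 1 was highest for 16 members and replicate 2 for 11.

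The spread inside groups was correspondingly wide. The pooled within-group SD of the members had a median of 0.74 log2 (range 0.41 to 1.14), against a median of 0.17 over all genes. Of the 27 members, 26 lay above the 99th percentile of all genes, which is an SD of 0.48, and all lay above the 90th. The 440 microRNA genes elsewhere in the genome had a median SD of 0.21. The members with the widest ranges were Mir300 (4.37 to 8.83, a 22.0-fold range), Mir543 (5.08 to 9.46, 20.7-fold) and Mir487b (4.81 to 9.06, 19.0-fold). The narrowest was Mir539, from 6.03 to 7.58.

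**Figure D2:**
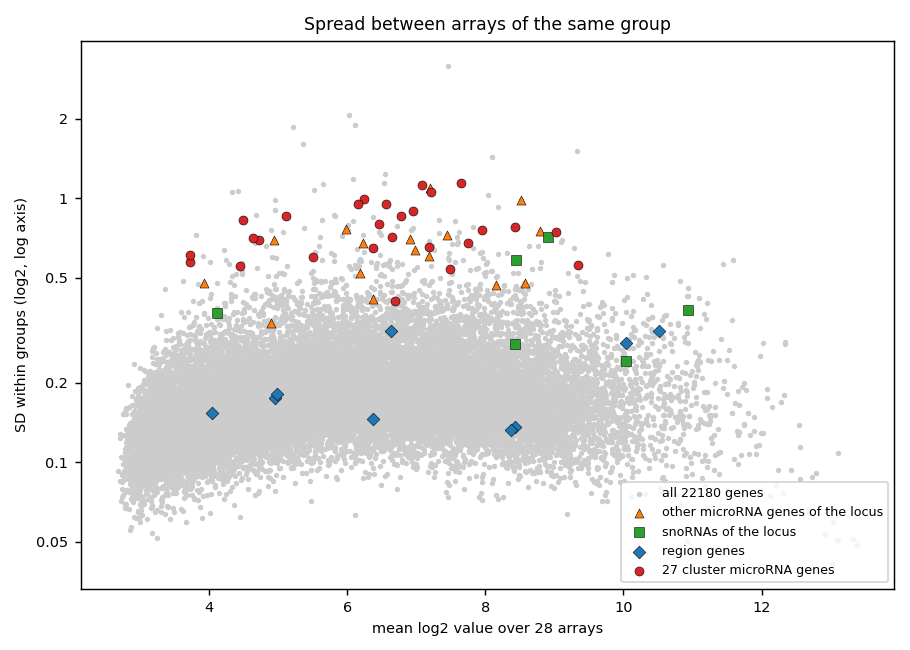
Each point is a gene, with its mean log2 value over 28 arrays on the x axis and its pooled SD within the 8 groups on a log y axis. The cluster members (red) lie between 0.41 and 1.14, with the other microRNA genes of the locus (orange) near them and the protein-coding and long noncoding genes of the region (blue) at 0.13 to 0.31.

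Mir300 and Mir543 show the size of the DKO split. Mir300 read 4.39, 8.26, 4.37, 8.23 and 6.93 in DKO replicates 1 to 5. Mir543 read 5.16, 9.34, 5.08, 9.46 and 7.80 in the same arrays. Replicates 2 and 4 were high and replicates 1 and 3 low in both genes. In Control the same genes ran from 6.49 to 8.83 and from 6.91 to 8.84. These genes were singled out after their values were seen.

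Several members rest on dim or doubled probe sets. Of the 27, 6 (Mir411, Mir495, Mir376a, Mir376c, Mir381 and Mir544) had means in the dimmest 40% of rows. Mir380, Mir376a and Mir409 each had another, dimmer row, with means of 3.33, 3.10 and 4.07 where the rows used had 6.56, 3.72 and 6.38. The dim rows of Mir376a and Mir380 ran only from 2.83 to 3.49 and from 2.95 to 4.05.

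The rest of the locus was followed from the start of the maternal transcripts. Rian, the snoRNA host transcript, read 9.46, 10.72, 9.57, 10.65 and 10.31 in the DKO arrays, low in the same replicates 1 and 3 as the microRNAs. In Control it read 10.08, 10.48 and 10.57. Meg3, the long noncoding RNA at the start of the transcripts, read 6.40, 6.72, 6.50, 7.08 and 6.63 in DKO, again with replicates 2 and 4 highest. The within-group SD of the 9 region genes had a median of 0.18, near that of all genes, but 3 lay above the 90th percentile. Across deviations from group means, the members' median Pearson r was 0.83 with Rian, 0.66 with Dlk1 and 0.51 with Meg3. It was 0.38 with Ppp2r5c and between -0.33 and -0.20 with Dio3, Dio3os, Begain, Wdr25 and Wars. The 16 other microRNA genes of the locus had a median within-group SD of 0.66, and 11 of them lay above the 99th percentile. For 16 of 16, Control replicate 2 and HRas-KO replicate 3 were the highest arrays of their groups, the same arrays as for the members. The 6 snoRNAs had a median SD of 0.37.

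Other measures that differed between the DKO arrays are given with their values. The mean of 85 small RNA rows, centred on each gene's mean, was 0.42, 0.19, 0.84, 0.23 and 0.21 in DKO replicates 1 to 5, and highest in the replicates with the lowest cluster level. The mean of 10 skeletal muscle markers, all measured, was 1.45, -0.13, 0.48, -0.18 and 0.91 in the same arrays. The mesenchyme markers, 7 of 7 measured, gave 0.07, 0.06, -0.13, 0.24 and -0.03. The microRNA genes elsewhere stayed between -0.09 and -0.02. The part of small RNA rows, muscle or mesenchyme in the cluster level was not tested.

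**Figure D3:**
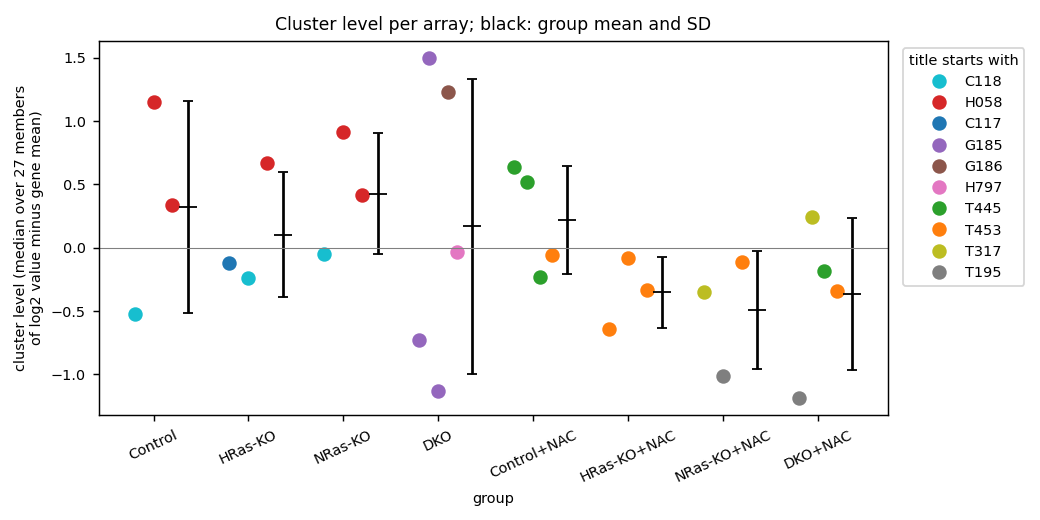
Each point is an array; the y axis is the cluster level, the median over 27 members of the log2 value minus the member's mean, and the x axis the group. Colours give the start of the sample title, and the black mark and bar the group mean and SD. The H058 points sit at 0.34 to 1.15, above all C117 and C118 points at -0.52 to -0.05.

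The cluster level moved with the start of the sample title in the 9 untreated arrays of Control, HRas-KO and NRas-KO, a split seen after the values were known. The 5 H058 arrays had cluster levels of 0.34 to 1.15 and the 4 C117 and C118 arrays of -0.52 to -0.05. Every H058 array was above every C117 and C118 array in 20 of 27 members, where 3.80% of all genes met the same condition. In Control the mean of the H058 arrays was above the C118 array in 27 of 27 members, with a median difference of 1.20 log2, where 48.5% of all genes were higher. In HRas-KO the H058 array was above the mean of the other arrays in 27 of 27 by a median of 0.83 (50.7% of all genes). In NRas-KO the mean of the H058 arrays was above the C118 array in 26 of 27 by 0.76 (52.5%). With genotype in a limma fit (a moderated linear model) of these arrays, 19 of 27 members were called higher in H058 at an adjusted p under 0.05, against 3.24% of all genes in either direction. The members' differences ran from 0.27 to 1.43. Because the split was picked from these same values, its adjusted p-values describe the separation and cannot test it. The members of an array also move together, so the 19 calls are not separate evidence. The count fell to 3 without Control replicate 1, to 2 without HRas-KO replicate 3 and to 8 without NRas-KO replicate 1. It fell to 6 with the small RNA mean as a covariate.

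Mir544 and Mir154, singled out after their values were seen, show the separation. Mir544 ran from 3.84 to 4.18 in the C117 and C118 arrays and from 4.73 to 5.49 in the H058 arrays. Mir154 ran from 5.73 to 6.02 and from 6.65 to 7.50. The groups did not overlap in either gene. They did overlap in Mir411, Mir667, Mir543, Mir376a, Mir382, Mir668 and Mir377. Among the other microRNA genes of the locus, 5 of 16 were called higher in H058, and 3 of the 440 microRNA genes elsewhere were called higher and 6 lower. Of the snoRNAs, 2 of 6 were called higher, DQ267101 by 1.21 and DQ267102 by 1.08 log2 (limma adjusted p = 0.00415 each). Meg3 differed by 0.44 and Rian by 0.32 (limma adjusted p = 0.119 and 0.109). Dlk1, the paternal gene, differed by -0.05 ± 0.11 (SE, limma adjusted p = 0.907). The background of this comparison was 3.24% of all genes, in either direction. All calls and adjusted p-values for this split describe it and cannot test it, because it was picked after the values were seen. The small RNA means ran from -0.44 to 0.08 in H058 and from -0.58 to 0.07 in C117 and C118, and the skeletal muscle means from -0.16 to 1.28 and from -0.09 to -0.07. The heart muscle means (8 of 8 markers measured) ran from 0.08 to 0.20 in H058 and from 0.20 to 1.07 in C117 and C118, with 1 marker called higher and 2 lower in H058. The epidermis means (5 of 6 measured) were 2.03 and 1.03 in the H058 arrays of NRas-KO and between -0.22 and -0.02 in the 7 others, with no marker called. The part of these measures in the difference was not tested.

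Within the H058 arrays the genotypes overlapped. In the C118 arrays the cluster level was -0.52 in Control, -0.24 in HRas-KO and -0.05 in NRas-KO. In the H058 arrays it was 1.15 and 0.34 in Control, 0.67 in HRas-KO, and 0.91 and 0.42 in NRas-KO. The 3 DKO arrays with titles starting with G185 held -0.73, 1.5 and -1.13, so the DKO split was also present inside 1 code start. Among NAC arrays, those starting with T195 had the lowest levels, -1.01 in NRas-KO+NAC and -1.19 in DKO+NAC. The T453 arrays, which held all 4 genotypes, lay between -0.64 and -0.06.

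Loss of HRas or of NRas alone was compared with Control to see how each gene affects the newborn lung. No member was called in either comparison. No gene of the 22180 was called, so the background was 0% for HRas-KO and 0% for NRas-KO. Nras itself was not called in NRas-KO, where it differed by -0.55 ± 0.12 log2 (SE, limma unadjusted p = 0.000129). A missing call therefore does not show that a member was unchanged. At an unadjusted p under 0.05, 0 of 27 members passed in each comparison, against 190 and 231 of all genes. The median member difference was -0.12 log2 in HRas-KO and 0.15 in NRas-KO. Both signs turned with single arrays: without Control replicate 2 the HRas-KO median was 0.26, and without Control replicate 1 the NRas-KO median was -0.26. The standard error of a member's difference had a median of 0.54 in these comparisons of 3 with 3 arrays, so a member's difference of 1 log2 was under 2 such errors. With code start as a fixed block the counts were again 0.

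DKO was compared with each untreated group, since the double knockout is the genotype that dies with respiratory distress. No member was called in DKO against Control, DKO against HRas-KO or DKO against NRas-KO, where 3.83%, 5.63% and 4.95% of all genes were called. The median member differences were -0.20, -0.08 and -0.30. These comparisons share the DKO arrays. No direction held when single arrays were left out. Against Control the median ran from -0.55 without Control replicate 1 to 0.18 without Control replicate 2, and was above 0 also without DKO replicate 1 (0.07) or 3 (0.14). Against HRas-KO it ran from -0.36 without DKO replicate 2 to 0.24 without DKO replicate 3, and was above 0 also without DKO replicate 1 (0.17) or HRas-KO replicate 3 (0.11). Against NRas-KO it ran from -0.625 without DKO replicate 2 to 0.03 without DKO replicate 3. At an unadjusted p under 0.05, 1, 0 and 2 members passed, where 15.7%, 18.2% and 17.4% of all genes did. They were Mir453 in DKO against Control (-0.84, adjusted p = 0.234) and Mir453 and Mir495 in DKO against NRas-KO (-0.91 and -1.17, adjusted p = 0.170 and 0.248, limma). Of the 440 microRNA genes elsewhere, 2 rose and 17 fell in DKO against Control.

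The small RNA rows moved with DKO: 31 of 85 rose and 1 fell against Control, with a median of 0.57. Their mean ran from 0.19 to 0.84 in DKO and from -0.58 to 0.08 in the 9 other untreated arrays. With that mean as a covariate, the median member difference of DKO against Control was 0.71, that of DKO against HRas-KO 1.18 and that of DKO against NRas-KO 0.28, and no member was called. The sign of the median in DKO thus changed with that covariate in all 3 comparisons, as it did with single arrays. The small RNA mean did not overlap between DKO and the other untreated arrays. These adjusted medians therefore compare groups at values of that mean which they did not share. The snoRNAs of the locus had 1 of 6 called against Control, AF357355, which rose by 0.82 log2 (limma adjusted p = 0.00511). Against HRas-KO 3 of 6 rose, AF357355 by 1.00, AF357341 by 0.85 and AF357426 by 0.76 (adjusted p = 0.000741, 0.0369 and 0.0159). Of the interaction terms, HRas by NRas called 0 members (background 0.225% of genes). Its median was -0.16, and 0.28 without Control replicate 1.

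**Figure D4:**
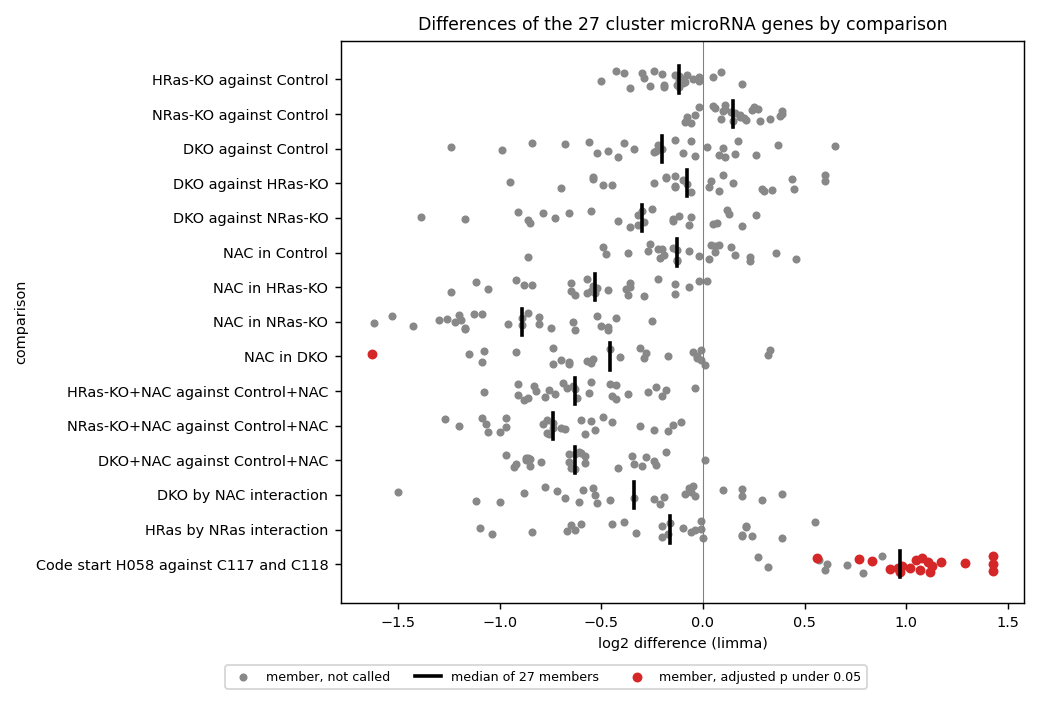
Each point is a cluster member, with its log2 difference on the x axis and the comparison on the y axis; the black bar is the median of the 27. Red points passed an adjusted p of 0.05. Mir487b at -1.63 in the comparison of NAC in DKO is the red point among the 14 comparisons of groups, and the code start row at the bottom holds 19.

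NAC was compared with no treatment inside each genotype. Member differences were mostly negative in the knockouts, and 1 member, Mir487b in DKO, passed the test. NAC in Control called 0 of 27 members where 13.5% of genes were called, with a median member difference of -0.13 and 16 of 27 negative. NAC in HRas-KO called 0 (background 11.8%), with a median of -0.53 and 26 negative. NAC in NRas-KO called 0 (background 6.42%), with a median of -0.89 and 27 negative. NAC in DKO called 1 (background 12.2%), with a median of -0.46 and 24 negative. The share of members called was thus below the background in every genotype. Over all genes 44.5% to 46.7% were negative, and the medians of microRNA genes elsewhere were 0.05 to 0.07.

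The medians moved with single arrays. In Control the median ran from -0.49 without Control replicate 1 to 0.32 without Control replicate 2, and was 0.03 without Control+NAC replicate 3 or 4. In HRas-KO it ran from -0.67 to -0.26, the last without HRas-KO replicate 3. In NRas-KO it ran from -1.20 to -0.69. In DKO it ran from -0.83 without DKO replicate 3 to -0.13 without DKO replicate 2, and was -0.20 without DKO replicate 4 and -0.26 without DKO+NAC replicate 1.

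Unadjusted p-values under 0.05 were reached by 0, 2, 5 and 6 members for NAC in Control, HRas-KO, NRas-KO and DKO, against 19.8% to 27.1% of all genes. The signs of the members are not separate evidence, because all members of an array move together. Of 10 skeletal muscle markers, the mean ran from -0.18 to 1.45 in untreated and from -0.52 to -0.18 in NAC arrays. The heart muscle mean ran from -0.34 to 1.07 in untreated and from -0.74 to 0.82 in NAC arrays, and 2, 1, 1 and 4 of its 8 markers were called lower with NAC in Control, HRas-KO, NRas-KO and DKO. In DKO it ran from -0.34 to 0.11 without and from -0.74 to -0.42 with NAC. Of the 5 epidermis markers, 3 were called lower with NAC in NRas-KO, where the mean ran from -0.05 to 2.03 without and from -0.19 to -0.09 with NAC. Of the 7 mesenchyme markers, 2, 3, 3 and 3 were called lower with NAC in the same order and 1 higher in DKO. Endothelium had 1, 0, 1 and 2 of 5 lower and 1 higher in DKO, and airway 1, 1, 0 and 2 of 3 lower. Nerve had 1 of 2 lower in Control, and no thymus or brown fat marker was called in any comparison. The background was 13.5%, 11.8%, 6.42% and 12.2% of all genes called in either direction, in the same order of genotypes. The part of these cell types in the NAC differences was not tested. With the muscle mean as a covariate, 1 member was called in NRas-KO.

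Every NAC array lay below every untreated array in 12 members in NRas-KO (10.5% of all genes) and in 10 in HRas-KO (14.9%). The same held for 1 member in DKO, Mir544 (5.32%), and for 0 in Control (10.1%). Mir379, Mir329, Mir495, Mir382, Mir668 and Mir377 were separated in both single knockouts. All these separated members are also compared between different code starts.

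Mir487b read 7.56, 9.05, 5.52, 9.06 and 7.65 in DKO and 4.81, 6.41, 6.57 and 6.76 in DKO+NAC. The untreated array at 5.52 lay inside the NAC range, so the groups overlapped. Mean values were 7.77 ± 1.45 (SD, n = 5) and 6.13 ± 0.90 (SD, n = 4). The difference of -1.63 ± 0.53 (SE), a 3.10-fold lower signal, had a limma adjusted p of 0.0424. The call was lost when any of DKO replicates 1, 2, 4 or 5 or DKO+NAC replicates 1, 2 or 3 was left out, with adjusted p between 0.0563 and 0.184. Over all alternatives tried the adjusted p ran from 0.00154 to 0.184. In Control, Mir487b read 6.39, 7.88 and 7.10 without and 7.49, 7.41, 6.49 and 6.58 with NAC. The difference between the NAC effects in DKO and in Control was not called for any member, with a background of 0.388% and a median of -0.34 (0.13 without Control replicate 1).

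Mir668 was the clearest of the members that missed the threshold. It read 7.72, 8.39 and 8.09 in NRas-KO and 6.47, 6.44 and 6.70 in NRas-KO+NAC, without overlap. The difference was -1.53 ± 0.47 (SE), 2.88-fold lower, with a limma adjusted p of 0.0503. In HRas-KO it read 7.33, 7.35 and 8.11 without and 6.64, 6.40 and 6.40 with NAC, again without overlap (-1.12 ± 0.47, adjusted p = 0.132). In DKO it read 6.64, 8.51, 6.22, 8.65 and 7.04, and with NAC 5.35, 6.97, 6.74 and 6.28, and these groups overlapped (-1.08 ± 0.39, adjusted p = 0.0698). Its NRas-KO difference passed the threshold under 6 alternatives, with adjusted p from 0.0166 to 0.0445. It did not pass under 6 others or without any 1 of the 6 arrays, and the highest adjusted p was 0.176, without NRas-KO replicate 2 (-1.36).

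Mir544, among the dimmest members, read 4.37, 5.97, 4.30, 5.51 and 4.60 in DKO and 3.54, 4.18, 4.14 and 4.28 in DKO+NAC. The groups were separated by 0.02 between the highest NAC and the lowest untreated array. The difference was -0.92 ± 0.33 (SE, limma adjusted p = 0.0683). It passed when DKO replicate 1 was left out (-1.07, adjusted p = 0.048). It also passed when DKO replicate 3 was left out (-1.08, adjusted p = 0.0335). Without DKO replicate 2 it was -0.67 (adjusted p = 0.193), and the highest adjusted p was 0.202, without DKO+NAC replicate 1 (-0.76).

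Mir381, whose hairpin is 73.8% identical to that of Mir300, read 4.29, 6.39, 3.70, 6.04 and 4.80 in DKO. With NAC it read 3.50, 4.21, 3.95 and 3.90. The DKO array at 3.70 lay among the NAC values, and the difference was -1.15 ± 0.42 (SE, limma adjusted p = 0.0734). Without that array, DKO replicate 3, it was -1.49 with an adjusted p of 0.0128. Without DKO replicate 2 it was -0.82 (adjusted p = 0.207), and without DKO replicate 4 it was -0.90 (adjusted p = 0.188).

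Mir495 read 4.72, 6.22 and 5.43 in NRas-KO and 4.33, 3.47 and 3.70 in NRas-KO+NAC. The groups did not overlap, and the difference was -1.62 ± 0.60 (SE, limma adjusted p = 0.111). Mir329, a bright member, read 9.49, 10.46 and 9.75 in NRas-KO and 8.64, 7.76 and 9.02 with NAC. These groups did not overlap either, and the difference was -1.43 ± 0.54 (SE, limma adjusted p = 0.120). In Control, Mir495 read 4.31, 6.16 and 5.36 without and 6.15, 5.39, 4.17 and 3.49 with NAC. The range inside the NAC group was wider than that inside Control.

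**Figure D5:**
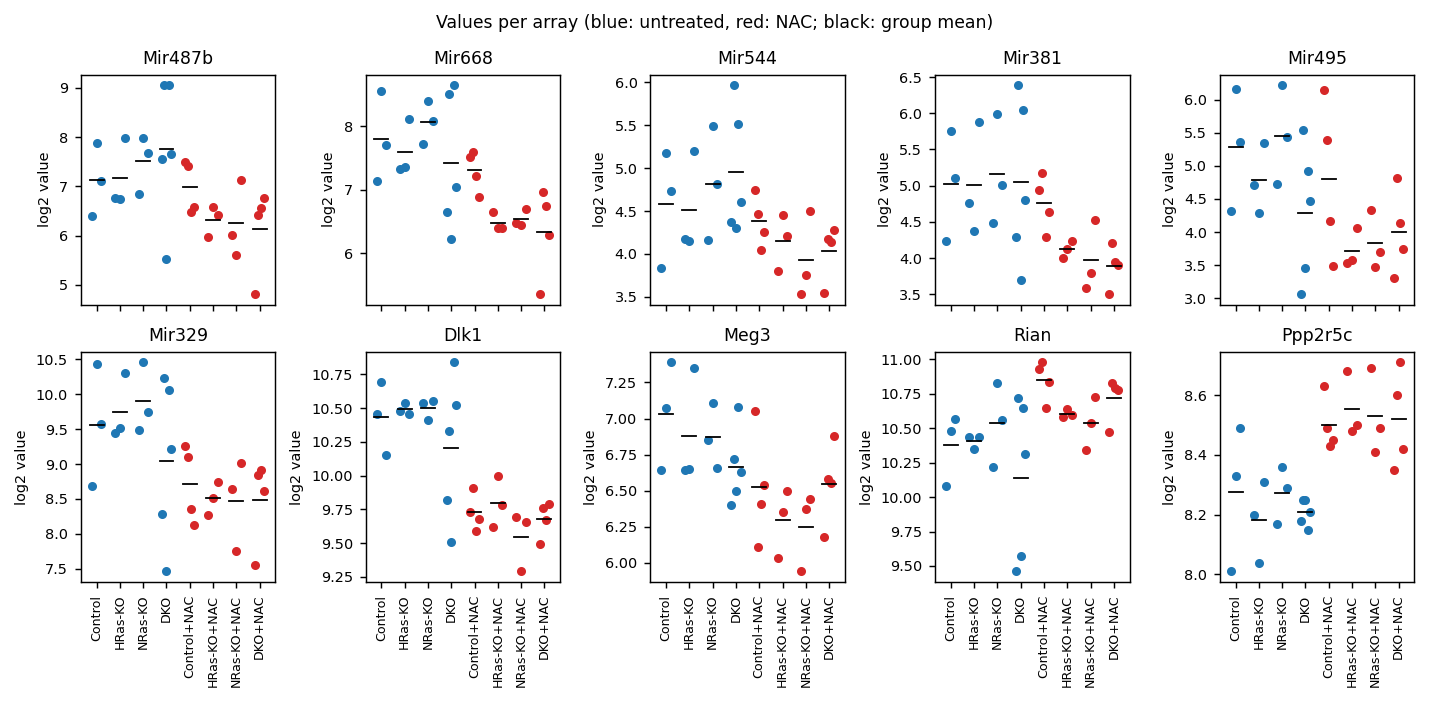
Each panel is a gene and each point an array, with the log2 value on the y axis and the 8 groups on the x axis (blue untreated, red NAC, black line the group mean). Mir487b falls from a mean of 7.77 in DKO to 6.13 in DKO+NAC with overlapping points, while the highest Dlk1 value with NAC is 10.

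Inside the NAC arm, each knockout was compared with Control+NAC. These comparisons share the Control+NAC arrays. No member was called in any of the 3 knockouts, and no gene was called, so the background was 0% in each. Unadjusted p-values under 0.05 were reached by 1, 0 and 2 members and by 1408, 2321 and 2116 of all genes. The median member differences were -0.63, -0.74 and -0.63. That of NRas-KO+NAC was -0.42 without its replicate 2, and that of DKO+NAC was -0.30 without its replicate 1. Of the 4 Control+NAC arrays, replicates 1 and 2 had cluster levels of 0.64 and 0.52, the highest of the NAC arm. Replicates 3 and 4 lay at -0.23 and -0.06, inside the range of the knockouts. In the T453 arrays alone, Control+NAC was at -0.06, NRas-KO+NAC at -0.11 and DKO+NAC at -0.34. The 3 HRas-KO+NAC arrays, all T453, were at -0.64, -0.08 and -0.33.

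Dlk1, the paternally expressed Notch-like membrane protein of fetal cells, was lower with NAC in all 4 genotypes. It read 10.46, 10.69 and 10.15 in Control and 9.73, 9.91, 9.59 and 9.68 in Control+NAC, a difference of -0.71 ± 0.20 (SE, limma adjusted p = 0.0181). In HRas-KO it read 10.48, 10.54 and 10.46, and with NAC 9.62, 10 and 9.78 (-0.69 ± 0.21, adjusted p = 0.0327). In NRas-KO it read 10.54, 10.41 and 10.55, and with NAC 9.69, 9.29 and 9.66 (-0.95 ± 0.21, adjusted p = 0.00739). The groups did not overlap in these genotypes.

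In DKO, Dlk1 read 9.82, 10.33, 9.51, 10.84 and 10.52, and with NAC 9.49, 9.76, 9.67 and 9.79. The DKO array at 9.51 overlapped the NAC values, and the difference was -0.53 ± 0.17 (SE, adjusted p = 0.0477). Leaving out single arrays ended the Dlk1 call in Control (without Control replicate 1 or 2 or Control+NAC replicate 3, adjusted p 0.0504 to 0.128). In HRas-KO the call ended without any HRas-KO replicate or HRas-KO+NAC replicates 1 or 3 (0.0692 to 0.140). In DKO it ended without DKO replicates 2, 4 or 5 or any DKO+NAC replicate (0.0585 to 0.148). In NRas-KO it held in each case. With the small RNA mean as a covariate the Dlk1 call was lost in Control and HRas-KO (-0.55 and -0.53). Of 12 alternatives other than leaving out an array, the Dlk1 call held under 11 in Control and 10 in HRas-KO. It held under 12 in NRas-KO and 8 in DKO, where the highest limma adjusted p was 0.198. The 7 mesenchyme markers had means of -0.13 to 0.24 in untreated arrays and of -0.37 to 0.06 with NAC, and their part was not tested.

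The maternal long RNAs did not pass the test. Meg3 differed by -0.51, -0.59, -0.62 and -0.12 log2 with NAC in Control, HRas-KO, NRas-KO and DKO (limma adjusted p = 0.129, 0.109, 0.119 and 0.766). Rian differed by 0.47, 0.20, 0.00 and 0.57 (adjusted p = 0.159, 0.670, 0.998 and 0.0503). In DKO+NAC, Rian read 10.47, 10.83, 10.79 and 10.78, so the estimates for Rian and for the median microRNA had opposite signs in Control, HRas-KO and DKO. Of the 6 snoRNAs, 2 rose with NAC in Control, 1 rose in HRas-KO, 1 fell in NRas-KO and 3 fell in DKO. The background in these genotypes was 13.5%, 11.8%, 6.42% and 12.2% of all genes. AF357426 rose in Control and HRas-KO (0.79 and 0.69, limma adjusted p = 0.00798 and 0.0309), and DQ267101 rose in Control (1.43, adjusted p = 0.0486). AF357425 fell in NRas-KO and DKO (-1.01 and -0.79, adjusted p = 0.0274 and 0.0234). AF357341 and AF357355 fell in DKO (-0.81 and -0.46, adjusted p = 0.016 and 0.0473).

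At the edges of the region, Ppp2r5c, a regulatory subunit of protein phosphatase 2A, rose with NAC in HRas-KO by 0.37 ± 0.11 and in DKO by 0.31 ± 0.09 (SE, limma adjusted p = 0.0332 and 0.0305). Its DKO values were 8.18, 8.25, 8.25, 8.15 and 8.21 and its DKO+NAC values 8.35, 8.60, 8.71 and 8.42, without overlap. The DKO call was lost without DKO replicates 1, 4 or 5 or DKO+NAC replicates 2 or 3 (adjusted p 0.0513 to 0.128). The HRas-KO call was lost without replicates 1 or 2 of HRas-KO or 1 or 3 of HRas-KO+NAC (0.0599 to 0.168). Of 12 alternatives other than leaving out an array, the Ppp2r5c call held under 11 in HRas-KO and 7 in DKO. Begain and Wdr25 fell in Control with NAC by -0.40 and -0.37 (adjusted p = 0.0498 and 0.0315). The Begain call was lost without any 1 of the 7 arrays (0.0581 to 0.171). The Wdr25 call was lost without any Control replicate or Control+NAC replicate 1 (0.0645 to 0.132). Under the 12 other alternatives the Begain call held in 4 and the Wdr25 call in 8. Dio3, the thyroid hormone deiodinase, had a dim signal, between 3.77 and 4.39 in all arrays. Dio3, its antisense transcript Dio3os and Wars were called in no comparison. Rtl1 and Mirg had no row of their own.

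Genes that make or use microRNAs were counted from a list of 21, of which 19 were measured. With NAC, 1 rose and 1 fell in Control, 1 rose and 2 fell in HRas-KO, 1 rose and 2 fell in NRas-KO, and 2 rose and 2 fell in DKO. These are 10.5%, 15.8%, 15.8% and 21.1% of the list, against 13.5%, 11.8%, 6.42% and 12.2% of all genes. Tnrc6c, a scaffold of the silencing complex, fell in all 4 genotypes, by -0.71, -0.59, -0.66 and -0.47 (limma adjusted p = 0.00246, 0.0159, 0.0131 and 0.0181). Ago2, the slicing Argonaute, fell in HRas-KO, NRas-KO and DKO by -0.42, -0.45 and -0.36 (adjusted p = 0.0452, 0.0463 and 0.0336). Tut4, a terminal uridylyl transferase, rose in Control and HRas-KO by 0.55 and 0.61 (adjusted p = 0.0292 and 0.0262). The other riser was Lin28b, which blocks let-7 maturation, in NRas-KO by 0.36 (adjusted p = 0.0358). Its signal was dim, between 3.97 and 4.45 in all arrays. Ddx17, a helicase of the Drosha complex, fell in DKO against Control, HRas-KO and NRas-KO by -0.53, -0.53 and -0.64 (adjusted p = 0.00932, 0.00656 and 0.00144). The other calls in these comparisons were Ran, a GTPase of nuclear transport, which rose by 0.56 against Control (adjusted p = 0.0441), and Tut4, which rose by 0.62 against HRas-KO (adjusted p = 0.022). That is 2, 2 and 1 of 19, or 10.5%, 10.5% and 5.26%, against 3.83%, 5.63% and 4.95% of all genes. With NAC in DKO Ddx17 rose by 0.76 (adjusted p = 5.44e-05), as did its relative Ddx5 by 0.41 (adjusted p = 0.0163). Drosha and Dicer1, the enzymes that cut the hairpins, were called in no comparison.

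Of 15 regulators of the imprint and of transcription at the locus, 14 were measured. With NAC, 2, 3 and 3 fell in Control, HRas-KO and NRas-KO and none rose. In DKO 2 fell and 1 rose. These are 14.3%, 21.4%, 21.4% and 21.4% of the list, against 13.5%, 11.8%, 6.42% and 12.2% of all genes. Trim28, the corepressor that Zfp57 brings to imprinted regions, fell in all 4 genotypes by -0.42, -0.51, -0.50 and -0.34 (limma adjusted p = 0.00359, 0.0016, 0.0031 and 0.00783). Dnmt1, the maintenance DNA methyltransferase, fell in HRas-KO and NRas-KO by -0.53 and -0.55 (adjusted p = 0.0122 and 0.0167). Mef2d, of the Mef2 factors that activate the distal block in neurons, fell in Control, HRas-KO and NRas-KO by -0.74, -0.68 and -0.77 (adjusted p = 0.00033, 0.00142 and 0.00106). Aff3 fell by -0.79 and Mef2a rose by 0.26 in DKO (adjusted p = 0.00468 and 0.016).

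Of 5 genes reported as targets of microRNAs of the locus, 4 were measured. Pum2, an RNA-binding protein and known target of miR-134, rose with NAC in Control, NRas-KO and DKO by 0.42, 0.53 and 0.58 (limma adjusted p = 0.0253, 0.0168 and 0.000973). Limk1, a kinase of the actin cytoskeleton and another known target of miR-134, fell in HRas-KO by -0.48, and Bcl6, a transcriptional repressor, fell there by -0.98 (adjusted p = 0.0087 and 0.0165). Mir134 itself was not analysed here. With NAC in Control, HRas-KO, NRas-KO and DKO, 13.5%, 11.8%, 6.42% and 12.2% of all genes were called. The named members and these genes were not tested against each other.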

How the data were processed

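The deposited table holds log2 values, 1 for each of 41345 probe sets on 28 arrays, made by the authors with RMA and affy according to the submitters' processing notes, which name no versions. Platform annotation gave 1 symbol to 23521 rows, several to 1814 and none to 16010. The brightest row over all arrays was used per gene, leaving 22180 genes. Groups came from the sample labels. limma 3.58.1 (R 4.3.3) fitted 8 group means to 28 arrays, with Benjamini-Hochberg adjustment over all 22180 genes and a threshold of 0.05. The script was tested on simulated data. Members called in any of 14 comparisons were named, filled to 6 by smallest p. Members and lists were chosen with earlier results of these data known. Alternatives were another row choice, a dim-row filter, other scaling, moderation, array weights, blocks, covariates, a 1.5-fold minimum and leaving out each array. The code start comparison was added after seeing the data. The marker lists for epidermis (5 of 6 measured), heart muscle (8 of 8), endothelium (5 of 5), airway (3 of 3), thymus (3 of 4), brown fat (4 of 4), nerve (2 of 5) and erythroid cells (0 of 4) were read too. Microarray precision is limited by the number of arrays. Same-numbered arrays of different groups were not alike (mean correlation 0.021 over 37 pairs, 13 over 0.1), so numbers were not taken as pairs.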

Additional observations from a re-analysis of the deposited data

Results flagged for a closer look

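Of 48 sets of values tested for an array that stands apart in a group of 4 or 5, 2 were flagged, where chance flags about 5% of sets. In DKO+NAC, Rian read 10.47 in replicate 1 and 10.78 to 10.83 in the others, and that array also had the lowest cluster level, -1.19. In Control+NAC, Wars read 8.55 in replicate 1 and 8.26 to 8.30 in the others. The cluster level itself was not flagged in any group.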

How the results depend on the processing

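No member was called under any alternative in HRas-KO or NRas-KO against Control, DKO against Control or HRas-KO, NAC in Control, the knockouts with NAC against Control+NAC, or either interaction. DKO against NRas-KO called 0 to 1 members when single arrays were left out. NAC in HRas-KO called 6 with only the arrays of the groups compared. NAC in NRas-KO called 2 with only those arrays, and 1 with the dimmest 40% of rows left out, with array weights, with the muscle mean or the small RNA mean as a covariate, and with the replicate block. The replicate block otherwise left the counts of members called as they were, but in DKO with NAC it called Mir544 (-1.01, adjusted p = 0.0328 in limma) in place of Mir487b (adjusted p = 0.0519). NAC in DKO called 0 when every row was tested, with trended and robust moderation and with only the groups compared, 5 with the small RNA covariate, and 0 to 4 when single arrays were left out. The code start comparison called 6 with the small RNA covariate and 2 to 22 when single arrays were left out. The cause of these changes was not tested. With the small RNA covariate the median difference moved to 0.71 in DKO against Control, 1.18 in DKO against HRas-KO, -1.11 for DKO by NAC and 0.64 for HRas by NRas. The small RNA mean did not overlap between DKO and the other untreated arrays. Over all alternatives Mir487b with NAC in DKO stayed negative, from -2.19 to -1.19. The fixed code start block could be fitted for the single knockouts against Control and the NAC arm alone. With standard errors near 0.5, member differences well above 0.5 could be missed. With NAC in NRas-KO, Mir495 at -1.62 and Mir329 at -1.43 were not called (limma adjusted p = 0.111 and 0.120).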

Other observations

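Genes outside the locus followed the same animals. Across the 28 arrays' deviations from their group means, 81 of 22122 genes elsewhere had a Pearson r above 0.8 with the members' median and 46 below -0.8. The most alike were Slit2, a guidance ligand, and Mylk, the myosin light chain kinase of smooth muscle, both at 0.92, then Arl15, Ryr2 and Cdk6 at 0.89. They were named after their values were seen. The arrays share animals, code starts and normalization across all genes, so these values are given as a description, with no test.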
